A study of Olea europaea with 12 samples.

Results

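Fruit flesh of the olive Olea europaea was compared at 30 and at 21 weeks after flowering (WAF). The comparison takes 6 of the 12 RNA-seq libraries of the series, 3 at 30 WAF and 3 at 21 WAF, with the letters A, B and C at each age. It was described across the 26131 genes, of 51008 in the deposited table, that had at least 1 FPKM in 3 or more of the 12 libraries. FPKM are fragments corrected for transcript length and for library size, so levels of different genes can be set side by side. Both groups are mesocarp, the oil-bearing flesh, of field-grown trees of the Greek oil cultivar Koroneiki, watered, fertilised and protected from pests in the usual local way. The labels name no experimental treatment, and the fruits of one season were chosen at each age to be alike in colour and form. The other 6 libraries, at 17 and 26 WAF, entered the estimate of the spread and the account of the time course. The ages were sampled on different dates, so age, season and weather cannot be told apart. The labels do not say that the letters stand for separate trees, so the p-values describe the scatter among these libraries, and that scatter may be technical.

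As background, an olive fruit that ripens turns from green to purple as anthocyanins are made from phenylalanine through the phenylpropanoid and flavonoid pathways. Its flesh softens as enzymes act on pectin and xyloglucan of the cell walls, while oil and bitter secoiridoid glucosides, which derive from the iridoid pathway, are stored in the same cells. Ethylene, abscisic acid, jasmonate, auxin and gibberellin are the hormones most often studied in fruit ripening, and the olive is usually treated as a fruit without a strong ethylene burst.

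The libraries of one age were alike. Across the tested genes, which are not independent replicates, Pearson correlations of log2(FPKM + 1) were 0.992 to 0.995 among the 3 pairs at 30 WAF and 0.995 (to 3 digits) among those at 21 WAF, against 0.909 to 0.914 over the 9 pairs of different ages. Summed FPKM came to 841143 to 845585 at 30 WAF and 823131 to 840404 at 21 WAF, and 36754 genes were above 0 in library C of 30 WAF, where the remaining 5 libraries had 38542 to 39167. The read depth is unknown, so no interval for counting error is given. The genes named next, taken as markers of oil-storing mesocarp, were present in all 6 libraries but moved in both directions. A stearoyl-ACP desaturase gene (LOC111375456), for the enzyme that makes oleate, had 1543, 1555 and 1603 FPKM at 30 WAF, against 1189.5, 1189.8 and 1177 FPKM at 21 WAF. An oleosin gene (LOC111402449) averaged 257 FPKM at 30 WAF and 170 FPKM at 21 WAF. A diacylglycerol O-acyltransferase gene (LOC111383725) averaged 17.1 FPKM at 30 WAF and 93.4 FPKM at 21 WAF.

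A large part of the transcriptome differed. Of the tested genes 18904 (72.3%) passed limma's test at an adjusted p under 0.05, of which 10115 (38.7% of all tested) were higher and 8789 (33.6%) lower at 30 WAF. Most differences were small, with a median absolute log2 change of 0.35 and a median change over all genes of 0.035. A change of at least 2-fold, that is 1 on the scale of log2(FPKM + 1), was called for 1662 genes upward (6.36%) and 1534 downward (5.87%). Changes of 3 or more on that scale numbered 128 upward and 82 downward. Which direction held more 2-fold changes depended on the processing, as median-of-ratios scaling gave 1567 upward and 1597 downward. The counts below are to be read against these shares, since about 7 genes in 10 passed whatever they encode. Among genes averaging 1000 FPKM or more over both ages, 18 of 64 changed at least 2-fold, against 1030 of 9415 genes averaging under 5 FPKM, where the added 1 shrinks the change.

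The largest rises were led by genes of anthocyanin synthesis. A leucoanthocyanidin dioxygenase gene (LOC111368826), whose enzyme turns leucoanthocyanidins into coloured anthocyanidins, had 504, 518 and 514 FPKM at 30 WAF, against 0.77, 0.64 and 0.71 FPKM at 21 WAF (log2 change 8.23, SE 0.047, adjusted p = 7.7e-18). It was barely detected in every 21 WAF library. Glutathione S-transferase F11 (LOC111397175), of a class that in Arabidopsis carries flavonoids to the vacuole, stood at 1108, 1136 and 1159 FPKM at 30 WAF, against 8.79, 9.53 and 9.69 FPKM at 21 WAF (log2 change 6.78, SE 0.047, adjusted p = 2.4e-17). Both genes thus held levels at 30 WAF far outside the range of the earlier libraries. The other 8 of the 10 largest rises were 2 dihydroflavonol 4-reductase genes, 2 chalcone synthase genes, a flavanone 3-dioxygenase gene, an 8-hydroxygeraniol dehydrogenase gene, and genes for a GAST1 peptide and a heavy metal-associated protein. GAST1 (LOC111382674), a small cysteine-rich peptide known in tomato for its response to gibberellin, averaged 51.8 ± 1.66 FPKM at 30 WAF and 0.31 ± 0.0755 FPKM at 21 WAF (SD, n = 3 each) (log2 change 5.33, SE 0.084, adjusted p = 1.1e-14). The metal-binding protein HIPP41 (LOC111395797) had 44.2, 41.1 and 42.1 FPKM at 30 WAF, against 0.3, 0.06 and 0.12 FPKM at 21 WAF (log2 change 5.23, SE 0.095, adjusted p = 4.4e-14).

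Of the 10 largest falls 5 were in genes for transcription factors. NAC90 (LOC111381277), of a plant-specific family of transcription factors, had 3.36, 3.49 and 3.81 FPKM at 30 WAF, against 218, 204 and 209 FPKM at 21 WAF (log2 change -5.54, SE 0.040, adjusted p = 2.4e-17). This was the largest fall by the naming rule. The AP2-type factor TINY (LOC111366136) had 0.91, 1.23 and 0.93 FPKM at 30 WAF, against 54.4, 52.9 and 50.9 FPKM at 21 WAF (log2 change -4.73, SE 0.054, adjusted p = 8.2e-16). The 10 included 3 DREB1 genes, known in Arabidopsis as cold-induced activators. DREB1B (LOC111403895) had 11.2, 10.7 and 10.2 FPKM at 30 WAF and 240.1, 230.0 and 219 FPKM at 21 WAF (log2 change -4.3, SE 0.043, adjusted p = 2.4e-16). Every tested DREB1 gene, 6 of 6, was lower at 30 WAF, and their summed FPKM was 23.8 to 25.5 at 30 WAF against 570.3 to 584 at 21 WAF. The remaining falls in the 10 were in genes for a trehalose-phosphate phosphatase (LOC111397422, log2 change -4.76), the calmodulin-like protein CML19 (LOC111378369, -4.67), the growth-related protein EXORDIUM (LOC111389935, -4.63), a xyloglucan endotransglucosylase (LOC111391445, -4.39) and an F-box protein (LOC111371584, -4.3).

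**Figure D1:**
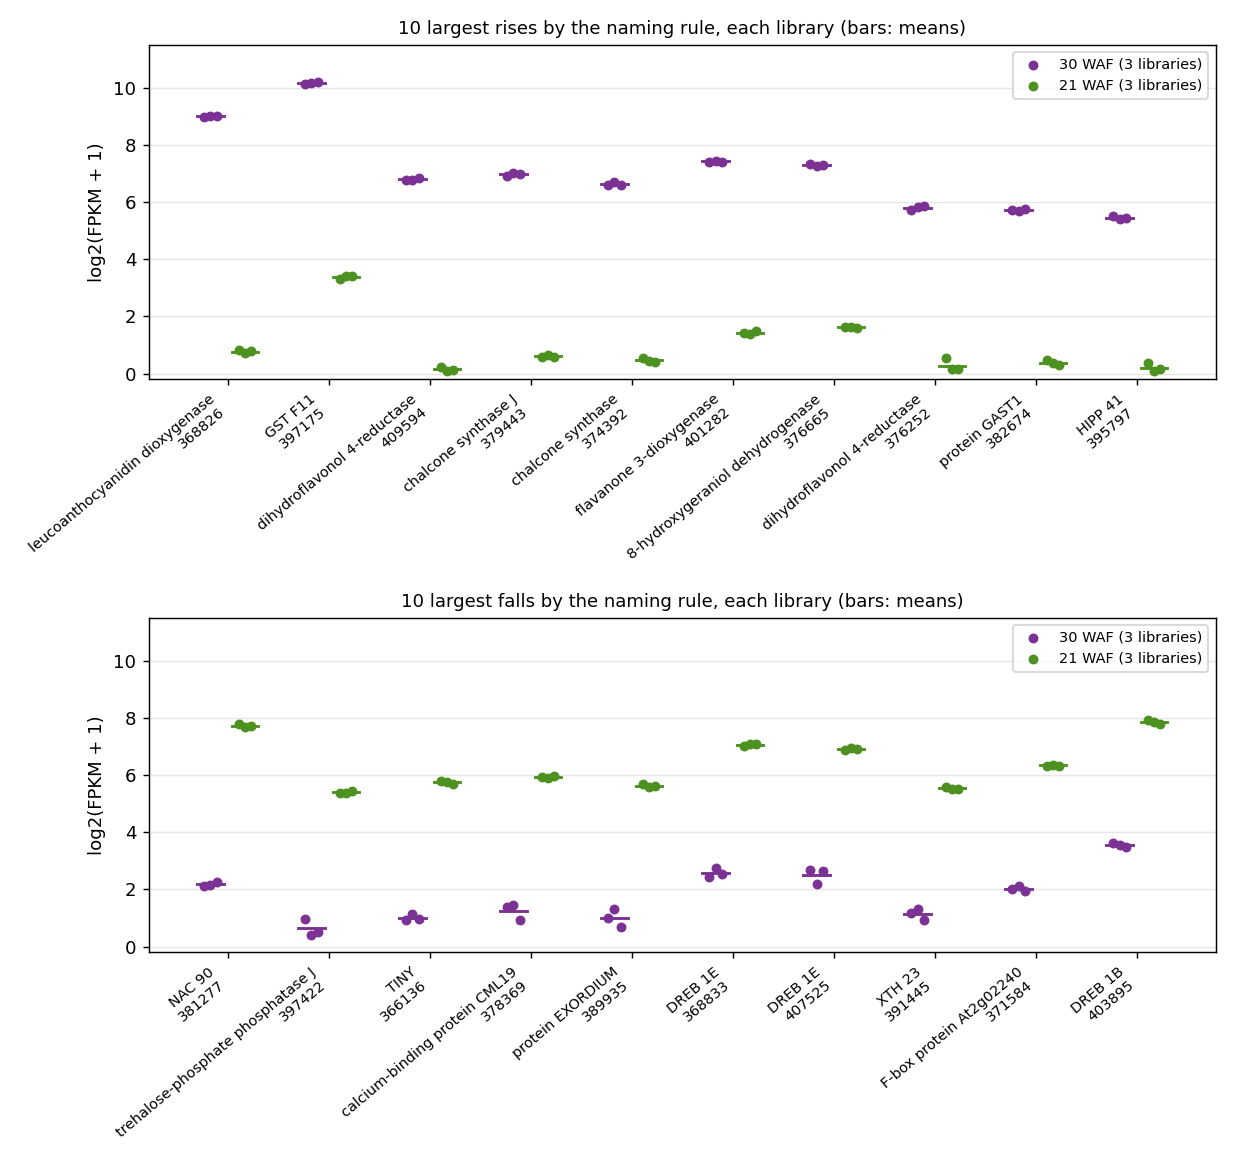
Levels of the 10 genes with the largest rise (upper panel) and the 10 with the largest fall (lower panel), as log2(FPKM + 1), with 1 point per library for 30 WAF (purple, left) and 21 WAF (green, right) and short bars at the means of 3 libraries. Digits under each name are the last 6 of the gene symbol. The points of both ages lie far apart for all 20 genes, and those of one age close together.

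The most abundant transcripts also differed between the ages. The 2 most abundant genes at 21 WAF encode bark storage protein A, which poplar uses to store nitrogen. LOC111384066 had 4547, 4505 and 4566 FPKM at 30 WAF, against 42656, 41569.6 and 41179.8 FPKM at 21 WAF (log2 change -3.2, SE 0.029, adjusted p = 1.2e-16). LOC111399394 had 1746, 1732 and 1694 FPKM at 30 WAF, against 17929.6, 17427 and 17255 FPKM at 21 WAF (log2 change -3.35, SE 0.033, adjusted p = 2.4e-16). Their joint share of all FPKM was 0.740 to 0.748% at 30 WAF and 7.09 to 7.21% at 21 WAF. With this fall the share of the 10 most abundant genes was 7.80 to 7.93% at 30 WAF against 13.6 to 13.9% at 21 WAF. At 30 WAF the first place went to metallothionein 1 (LOC111369652), a small metal-binding protein, with 13555, 13289 and 13893 FPKM at 30 WAF, against 9918, 9932 and 10205 FPKM at 21 WAF (log2 change 0.44, SE 0.037, adjusted p = 1.9e-07). Protein SRC1 (LOC111387830), the most abundant gene of the dehydrin and cold-response list, had 10917, 10524 and 11332 FPKM at 30 WAF. At 21 WAF it had 5821, 5610 and 5062 FPKM (log2 change 0.99, SE 0.067, adjusted p = 2.1e-08). A lipid-transfer protein 1 gene (LOC111408002), of a family that moves lipids to the fruit surface, had 9691, 9434 and 9166 FPKM at 30 WAF, against 2815, 2584 and 2429 FPKM at 21 WAF (log2 change 1.86, SE 0.063, adjusted p = 2.1e-11). One beta-glucosidase gene (LOC111404214) went the other way with 5469.9, 5274 and 5288 FPKM at 30 WAF, against 9672, 10181 and 10173 FPKM at 21 WAF (log2 change -0.90, SE 0.037, adjusted p = 1.3e-10). The 2 bark storage genes, like other near-identical copies named here, may share fragments, so the split of the signal between them is uncertain.

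Most genes of flavonoid and anthocyanin synthesis rose. Of 34 tested genes on the flavonoid list 27 were higher, 4 lower and 3 did not pass, with 18 at least 2-fold higher and 0 at least 2-fold lower. Their median log2 change was 1.24, against 0.035 over all tested genes. The summed FPKM of the list was 1801 to 1837 at 30 WAF and 378 to 386 at 21 WAF. Several genes of this list other than the most abundant and the most changed were chosen after their values were seen, to show each step.

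At the entry, phenylalanine ammonia-lyase LOC111399604, which commits phenylalanine to phenolics, had 36.4, 38.1 and 37.4 FPKM at 30 WAF, against 1.46, 1.61 and 1.56 FPKM at 21 WAF (log2 change 3.91, SE 0.045, adjusted p = 8.3e-16). All 3 genes for chalcone synthase, the first flavonoid step, rose. LOC111379443 had 120.4, 128 and 126 FPKM at 30 WAF and 0.51, 0.56 and 0.51 FPKM at 21 WAF (log2 change 6.37, SE 0.058, adjusted p = 1.2e-16), and LOC111374392 had 96.7, 102 and 95 FPKM at 30 WAF and 0.46, 0.37 and 0.34 FPKM at 21 WAF (log2 change 6.15, SE 0.076, adjusted p = 1.4e-15). The third, LOC111374393, had 16.4, 14.1 and 14.8 FPKM at 30 WAF, against 0.04, 0.03 and 0 FPKM at 21 WAF. Chalcone isomerase 3 (LOC111387047) had 59.9, 59.7 and 59.8 FPKM at 30 WAF, against 3.1, 2.6 and 2.71 FPKM at 21 WAF (log2 change 4.0, SE 0.079, adjusted p = 1.0e-13). Flavanone 3-dioxygenase (LOC111401282), which makes dihydroflavonols, had 168, 173 and 169 FPKM at 30 WAF, against 1.66, 1.6 and 1.84 FPKM at 21 WAF (log2 change 5.99, SE 0.045, adjusted p = 3.3e-17). Flavonoid 3'-monooxygenase (LOC111401587), which sets the hydroxylation of the later pigment, had 122, 121 and 127 FPKM at 30 WAF, against 4.28, 4.69 and 3.97 FPKM at 21 WAF (log2 change 4.55, SE 0.051, adjusted p = 7.2e-16).

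The late steps parted by gene copy. Of 4 tested dihydroflavonol 4-reductase genes, LOC111409594 had 109, 109 and 115 FPKM at 30 WAF against 0.17, 0.07 and 0.1 FPKM at 21 WAF (log2 change 6.65, SE 0.057, adjusted p = 8.5e-17), and LOC111376252 had 51.5, 56.2 and 56.8 FPKM at 30 WAF against 0.45, 0.11 and 0.11 FPKM at 21 WAF (log2 change 5.52, SE 0.10, adjusted p = 6.1e-14). A further copy, LOC111381085, had 11.1, 11.8 and 12 FPKM at 30 WAF, against 10.7, 10.4 and 11 FPKM at 21 WAF and did not pass (log2 change 0.11, SE 0.054, adjusted p = 0.089). Glucosyltransferases, which attach the sugar that stabilises anthocyanidins, were likewise unequal: 8 of 10 anthocyanidin 3-O-glucosyltransferase genes were higher and 2 lower. LOC111374585 had 57.1, 51 and 50.3 FPKM at 30 WAF, against 1.66, 1.39 and 1.26 FPKM at 21 WAF (log2 change 4.47, SE 0.074, adjusted p = 1.9e-14). The most abundant of them, LOC111383563, was slightly lower, with 171, 173 and 172 FPKM at 30 WAF, against 196, 203 and 195 FPKM at 21 WAF (log2 change -0.20, SE 0.025, adjusted p = 8.7e-06). The 2 tested genes of the branch that leads to proanthocyanidins did not share the rise. Their level was low at both ages, with sums of 3.49 to 4.24 FPKM at 30 WAF and 4.52 to 5.13 FPKM at 21 WAF. At such levels the added 1 shrinks changes. Leucoanthocyanidin reductase (LOC111369334) fell, with 1.21, 1.78 and 1.25 FPKM at 30 WAF, against 2.58, 2.43 and 2.43 FPKM at 21 WAF (log2 change -0.54, SE 0.12, adjusted p = 0.0015), and anthocyanidin reductase (LOC111373872) did not pass, with 2.28, 2.46 and 2.96 FPKM at 30 WAF, against 2.05, 2.09 and 2.7 FPKM at 21 WAF (log2 change 0.12, SE 0.12, adjusted p = 0.36).

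Genes named for MYB activators of this route were also higher at 30 WAF. MYB113 (LOC111409128), named after an Arabidopsis activator of anthocyanin genes, had 11.8, 12.8 and 11 FPKM at 30 WAF, against 0.48, 0.43 and 0.14 FPKM at 21 WAF (log2 change 3.26, SE 0.10, adjusted p = 9.1e-12). MYB114 (LOC111389429), named after a relative of it, had 16.9, 17.2 and 16 FPKM at 30 WAF, against 1.17, 1.57 and 1.18 FPKM at 21 WAF (log2 change 2.95, SE 0.11, adjusted p = 7.8e-11). These were the 2 largest rises on the MYB list, where 37 of 81 genes were higher and 29 lower, with a median of 0.13 that turned to -0.10 among the 39 members averaging at least 5 FPKM. Skin is a site of anthocyanin in many fruits, and 2 lists of epidermal markers were read beside this result. Cuticle and wax genes summed to 2806 to 2848 FPKM at 30 WAF and 1299.6 to 1322 FPKM at 21 WAF. Epidermal identity genes, that is HD-ZIP IV factors and protodermal factors, summed to 246 to 249 FPKM at 30 WAF and 256 to 264 FPKM at 21 WAF, with 5 higher and 6 lower of 15 tested and 3 of 26 matched genes at 0 in all 6 libraries. The part of skin cells in the rise was not tested, and in these bulk samples more cells of a type and more RNA per cell cannot be told apart.

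**Figure D2:**
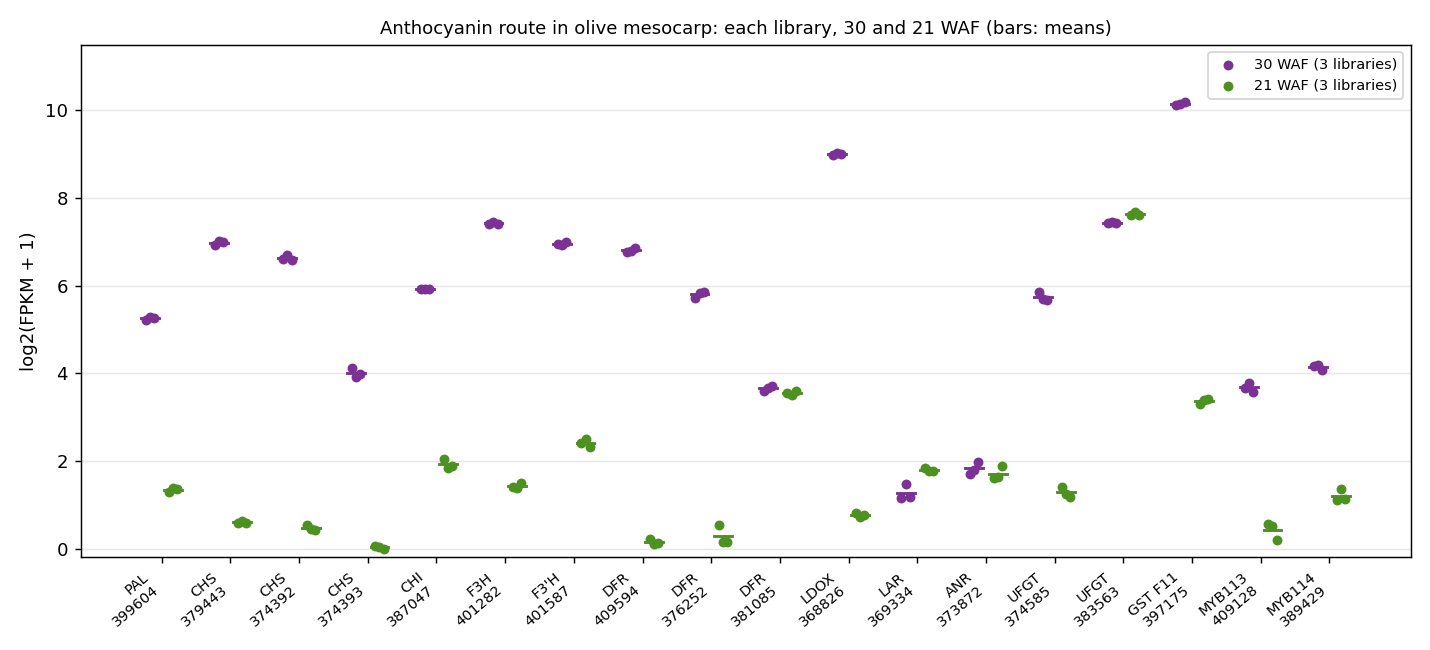
Levels of 18 genes along the route to anthocyanins, from phenylalanine ammonia-lyase (PAL) through chalcone synthase (CHS), chalcone isomerase (CHI), flavanone 3-dioxygenase (F3H), flavonoid 3'-monooxygenase (F3'H), dihydroflavonol 4-reductase (DFR) and leucoanthocyanidin dioxygenase (LDOX) to glucosyltransferases (UFGT), with the side branch of leucoanthocyanidin reductase (LAR) and anthocyanidin reductase (ANR), and of glutathione S-transferase F11, MYB113 and MYB114. The axis gives log2(FPKM + 1) for each of 3 libraries at 30 WAF (purple, left) and 21 WAF (green, right), with bars at the means. The levels part widely for most steps and lie close for the DFR gene LOC111381085, LAR, ANR and the UFGT gene LOC111383563, each marked by the last digits of its symbol.

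The wider phenylpropanoid list had 35 of 54 genes higher and 7 lower, a median log2 change of 0.57 and summed FPKM of 2610.4 to 2641 at 30 WAF against 1494 to 1556 at 21 WAF. Its most abundant member, the cinnamoyl-CoA reductase-like gene SNL6 (LOC111410576), had 645, 641 and 632 FPKM at 30 WAF, against 214, 207 and 211 FPKM at 21 WAF (log2 change 1.6, SE 0.031, adjusted p = 7.0e-14). Caffeic acid 3-O-methyltransferase (LOC111397542), which methylates monolignol precursors, had 369, 364 and 365 FPKM at 30 WAF, against 183, 174 and 168 FPKM at 21 WAF (log2 change 1.06, SE 0.033, adjusted p = 7.6e-12). On this list the 2 largest falls were in genes named cinnamoyl-CoA reductase 1, for the first step specific to lignin monomers. LOC111392506 had 13.5, 12.2 and 13.7 FPKM at 30 WAF, against 52.5, 52.5 and 51 FPKM at 21 WAF (log2 change -1.91, SE 0.057, adjusted p = 5.2e-12). LOC111380905 is listed at 0 in all 3 libraries at 30 WAF and had 8.09, 14.1 and 4.11 FPKM at 21 WAF, and the spread between those libraries and the chance of reads shared with copies leave its value uncertain. Secondary wall markers of endocarp and vessels summed to 117 to 125 FPKM at 30 WAF and 113 to 115 FPKM at 21 WAF. Of 20 tested 5 were higher and 8 lower, and 13 of 72 matched genes were at 0 in all 6 libraries.

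Iridoid genes, which supply the secoiridoid branch, rose in part. Of 31 tested 18 were higher and 10 lower, with a median of 0.40 and summed FPKM of 1471 to 1489 at 30 WAF against 885 to 909 at 21 WAF. Among early steps, the 8-hydroxygeraniol dehydrogenase LOC111376665 had 159, 154 and 156 FPKM at 30 WAF, against 2.07, 2.12 and 2.04 FPKM at 21 WAF (log2 change 5.68, SE 0.055, adjusted p = 2.2e-16). The most abundant gene of that name, LOC111387381, had 225, 229.6 and 237 FPKM at 30 WAF, against 81.9, 84.5 and 81.8 FPKM at 21 WAF (log2 change 1.47, SE 0.027, adjusted p = 5.0e-14). A later step is served by 7-deoxyloganetic acid glucosyltransferase, whose most abundant gene (LOC111376443) had 329.6, 336 and 339.8 FPKM at 30 WAF, against 153, 153 and 152 FPKM at 21 WAF (log2 change 1.13, SE 0.027, adjusted p = 7.2e-13), while LOC111377610 fell with 3.72, 4.39 and 4.85 FPKM at 30 WAF, against 10.6, 10.8 and 10.4 FPKM at 21 WAF (log2 change -1.13, SE 0.077, adjusted p = 2.6e-08). The list therefore held copies that moved in opposite directions.

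Genes named beta-glucosidase or polyphenol oxidase, families with members that act on stored phenolics, went in both directions. The list was matched by name, and what each member acts on was not tested. Of 31 beta-glucosidase and polyphenol oxidase genes 14 were higher and 16 lower, with a median of -0.29 that turned to 0.28 among the 12 members averaging at least 5 FPKM. The summed FPKM was 5839 to 6030.4 at 30 WAF and 10229.6 to 10748 at 21 WAF, most of it from the abundant beta-glucosidase LOC111404214 given above. Polyphenol oxidase I (LOC111375437), which browns phenolics, fell with 31.4, 30.9 and 30.4 FPKM at 30 WAF, against 82, 81.3 and 80.6 FPKM at 21 WAF (log2 change -1.37, SE 0.037, adjusted p = 1.9e-12). A beta-glucosidase gene of low level, LOC111381384, rose with 13.2, 13 and 10.7 FPKM at 30 WAF, against 0.17, 0.22 and 0.22 FPKM at 21 WAF (log2 change 3.46, SE 0.082, adjusted p = 5.3e-13).

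Most cuticle and wax genes were higher. Of 49 tested 35 were higher, 5 lower and 9 did not pass, and 22 rose at least 2-fold, with a median of 0.62. Fatty acyl-CoA reductase 3 (LOC111391318), which makes wax alcohols, had 170.3, 164 and 175 FPKM at 30 WAF, against 6.29, 6.89 and 8.34 FPKM at 21 WAF (log2 change 4.39, SE 0.070, adjusted p = 1.3e-14). ECERIFERUM 1 (LOC111373242), of the alkane-forming complex, had 14.5, 15.4 and 15.9 FPKM at 30 WAF, against 0.58, 0.53 and 0.5 FPKM at 21 WAF (log2 change 3.4, SE 0.079, adjusted p = 4.7e-13). ECERIFERUM 3 (LOC111385303), its partner in Arabidopsis, was the most abundant of the list and had 568, 566 and 566 FPKM at 30 WAF, against 169.8, 175 and 171 FPKM at 21 WAF (log2 change 1.71, SE 0.030, adjusted p = 3.0e-14). One member fell at least 2-fold, 3-ketoacyl-CoA synthase 11 (LOC111398707), an elongase of very-long-chain fatty acids, with 7.97, 8.31 and 7.58 FPKM at 30 WAF, against 63.9, 65 and 65.1 FPKM at 21 WAF (log2 change -2.88, SE 0.034, adjusted p = 9.5e-16). These genes serve as epidermal markers, and the counts of the epidermal identity list are given above. Its one member with a 2-fold rise, protodermal factor 1 (LOC111410556), had 13.1, 14.7 and 14.4 FPKM at 30 WAF, against 4.68, 4.55 and 4.26 FPKM at 21 WAF (log2 change 1.45, SE 0.058, adjusted p = 1.0e-10). Whether the flesh samples held more skin at 30 WAF was not tested.

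Lipid-transfer proteins showed large rises, with 11 of 15 higher and 5 at least 2-fold. LOC111408003, a further gene for lipid-transfer protein 1, had 1976, 2018 and 2101 FPKM at 30 WAF, against 259, 223 and 219 FPKM at 21 WAF (log2 change 3.12, SE 0.079, adjusted p = 1.0e-12). The summed FPKM of the list was 11981 to 12371 at 30 WAF against 3189.8 to 3662 at 21 WAF.

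Genes for wall loosening held large rises beside falls. Of 69 genes for pectin-degrading enzymes and galactosidases 32 were higher and 18 lower, with a median of 0.086. Yet 16 rose at least 2-fold and 5 fell so far. Pectate lyase 18 (LOC111405311), which cleaves pectin, had 692, 695 and 716 FPKM at 30 WAF, against 46.9, 47.2 and 46.7 FPKM at 21 WAF (log2 change 3.87, SE 0.033, adjusted p = 8.0e-17). Polygalacturonase LOC111377603, which cuts the pectin backbone by hydrolysis, had 182, 179 and 185 FPKM at 30 WAF, against 7.51, 9.25 and 8.3 FPKM at 21 WAF (log2 change 4.3, SE 0.063, adjusted p = 5.9e-15), and LOC111396324 had 121, 131 and 129 FPKM at 30 WAF, against 7.5, 6.04 and 5.93 FPKM at 21 WAF (log2 change 4.1, SE 0.068, adjusted p = 1.9e-14). Against these, polygalacturonase LOC111401119 had 2.56, 2.2 and 2.64 FPKM at 30 WAF, against 16.8, 17.8 and 17 FPKM at 21 WAF (log2 change -2.39, SE 0.063, adjusted p = 1.5e-12). By enzyme, pectate lyases summed to 1064 to 1109.7 FPKM at 30 WAF against 153 to 161 FPKM at 21 WAF, and polygalacturonases to 606 to 623 FPKM at 30 WAF against 219.6 to 231 FPKM at 21 WAF. Pectinesterases, which strip methyl groups from pectin, differed less, at 451 to 463 FPKM at 30 WAF against 381 to 390.4 FPKM at 21 WAF, with 3 genes higher and 4 lower of 8. These groups within lists were formed by name after the values were seen.

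Expansins and xyloglucan enzymes gave different counts. Expansins, which loosen walls without cutting them, were higher for 10 of 15 genes, 9 of them at least 2-fold, and summed to 4657 to 4768 FPKM at 30 WAF against 766 to 795 FPKM at 21 WAF. Expansin-A15 (LOC111381719) had 3109, 3139 and 3177 FPKM at 30 WAF, against 443, 461 and 439 FPKM at 21 WAF (log2 change 2.81, SE 0.026, adjusted p = 1.4e-16). Expansin-A8 (LOC111384671) had 1055, 1050.2 and 1090.0 FPKM at 30 WAF, against 77, 76 and 75.7 FPKM at 21 WAF (log2 change 3.79, SE 0.035, adjusted p = 1.5e-16), and a second expansin-A8 gene (LOC111397188) had 30.9, 32.4 and 31.7 FPKM at 30 WAF against 0.16, 0.13 and 0.07 FPKM at 21 WAF (log2 change 4.87, SE 0.082, adjusted p = 2.1e-14). Xyloglucan endotransglucosylases, which cut and rejoin xyloglucan, were higher for 8 and lower for 10 of 22 genes, with similar sums of 434 to 435 FPKM at 30 WAF and 452 to 456 FPKM at 21 WAF. The fall of LOC111391445 was one of the 10 largest, and its neighbour in name, LOC111391439, had 1.62, 1.58 and 1.54 FPKM at 30 WAF, against 28.4, 29.2 and 29.2 FPKM at 21 WAF (log2 change -3.54, SE 0.033, adjusted p = 1.4e-16).

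More genes that build walls were lower than higher. Of 60 cellulose synthesis and arabinogalactan genes 17 were higher and 28 lower, and 11 fell at least 2-fold against 6 that rose so far. COBRA-like 7 (LOC111393401), of a family that guides cellulose deposition, had 9.09, 10.6 and 9.62 FPKM at 30 WAF, against 152, 146 and 144 FPKM at 21 WAF (log2 change -3.79, SE 0.046, adjusted p = 1.2e-15). Cellulose synthase A subunit 2 (LOC111377257) had 1.43, 1.72 and 1.5 FPKM at 30 WAF, against 14.7, 14.9 and 14.8 FPKM at 21 WAF (log2 change -2.63, SE 0.053, adjusted p = 1.1e-13). The most abundant gene of the list, fasciclin-like arabinogalactan protein 7 (LOC111412049), rose with 154, 158 and 143 FPKM at 30 WAF, against 94.8, 92.1 and 87.4 FPKM at 21 WAF (log2 change 0.72, SE 0.049, adjusted p = 2.4e-08). The next, cellulose synthase-like G3 (LOC111390470), did not pass, with 110.3, 109 and 112 FPKM at 30 WAF, against 107, 109.5 and 109 FPKM at 21 WAF (log2 change 0.021, SE 0.029, adjusted p = 0.53). The largest rises were in arabinogalactan genes, LOC111377703 with a log2 change of 1.89 and LOC111392919 with 1.76.

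Ethylene genes split by step. All 5 tested genes of ACC oxidase, which makes ethylene from its precursor ACC, were higher, 4 of them at least 2-fold, and they summed to 269.7 to 280.0 FPKM at 30 WAF against 25.6 to 26.1 FPKM at 21 WAF. LOC111370659 had 97.6, 99.8 and 102 FPKM at 30 WAF, against 1.82, 2.31 and 2.71 FPKM at 21 WAF (log2 change 4.95, SE 0.084, adjusted p = 2.3e-14), and LOC111370655, the most abundant copy and named after its values were seen, had 127, 122 and 129.6 FPKM at 30 WAF, against 17.3, 17.1 and 17.6 FPKM at 21 WAF (log2 change 2.79, SE 0.063, adjusted p = 3.7e-13). The only tested ACC synthase gene (LOC111380501), for the step that makes ACC, moved the opposite way with 0.64, 0.58 and 0.44 FPKM at 30 WAF, against 8.63, 9.27 and 8.83 FPKM at 21 WAF (log2 change -2.68, SE 0.055, adjusted p = 1.5e-13). Receptor genes were higher for 4 of 5, while the EIN3-like genes, for the transcription factors at the end of the signal chain, were lower for 4 of 7 and higher for 0. No EIN3-like gene and 1 receptor gene changed at least 2-fold. The most abundant EIN3-like gene (LOC111391955) had 107, 109.8 and 109 FPKM at 30 WAF, against 134, 131 and 127 FPKM at 21 WAF (log2 change -0.26, SE 0.043, adjusted p = 1.1e-04).

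Jasmonate-response genes went down as a list: 21 of 29 were lower and 3 higher, with 9 at least 2-fold lower, 0 at least 2-fold higher and a median of -0.48. TIFY (JAZ) proteins repress the response and are themselves induced by the hormone in Arabidopsis. TIFY 10A (LOC111404294) had 53.4, 59.6 and 57.3 FPKM at 30 WAF, against 321, 312 and 303 FPKM at 21 WAF (log2 change -2.44, SE 0.052, adjusted p = 2.1e-13), and TIFY 5A (LOC111412848) had 1.33, 1.67 and 1.98 FPKM at 30 WAF, against 23.6, 22.4 and 25.1 FPKM at 21 WAF (log2 change -3.22, SE 0.092, adjusted p = 3.3e-12). The second most abundant, TIFY 10B (LOC111366878), did not pass, with 138, 146 and 152 FPKM at 30 WAF, against 158, 153 and 153 FPKM at 21 WAF (log2 change -0.093, SE 0.056, adjusted p = 0.15). MYC2 (LOC111398443), the main activator of jasmonate genes in Arabidopsis, had 18.6, 17.6 and 18.3 FPKM at 30 WAF, against 103, 109 and 105 FPKM at 21 WAF (log2 change -2.47, SE 0.036, adjusted p = 5.9e-15).

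The lipoxygenase pathway, which feeds jasmonates and the green aroma of olive oil, had 10 genes higher and 16 lower of 26. All 4 13-lipoxygenase genes, for the plastid enzymes upstream of both products, were at least 2-fold lower and summed to 839 to 867 FPKM at 30 WAF against 1898 to 1940.2 FPKM at 21 WAF. The most abundant, LOC111392344, had 749.6, 747 and 724 FPKM at 30 WAF, against 1569, 1538 and 1500.4 FPKM at 21 WAF (log2 change -1.05, SE 0.027, adjusted p = 1.1e-12). Hydroperoxide lyase (LOC111368519), which forms the volatile aldehydes, had 180.1, 188 and 192 FPKM at 30 WAF, against 541, 526 and 509 FPKM at 21 WAF (log2 change -1.49, SE 0.034, adjusted p = 4.4e-13). Of 4 9-lipoxygenase genes 2 were higher and 2 lower, with a median of -0.12. The largest rise among them was in LOC111410046, with 260.0, 263 and 269.9 FPKM at 30 WAF, against 38.2, 39.2 and 37.5 FPKM at 21 WAF (log2 change 2.76, SE 0.033, adjusted p = 9.5e-16). A putative 12-oxophytodienoate reductase 11 gene (LOC111375625) of the list also rose. It averaged 52.5 FPKM at 30 WAF and 12.2 FPKM at 21 WAF (log2 change 2.02, SE 0.050, adjusted p = 8.0e-13).

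Abscisic acid genes were higher in 26 and lower in 16 of 50. Protein phosphatase 2C 37 (LOC111383955), a negative regulator that the hormone induces in Arabidopsis, had 76.2, 77 and 80.7 FPKM at 30 WAF, against 10.5, 11 and 10.5 FPKM at 21 WAF (log2 change 2.76, SE 0.042, adjusted p = 8.8e-15), and a second gene of that name (LOC111385800) had 116, 119 and 124 FPKM at 30 WAF against 27.9, 27.9 and 26.9 FPKM at 21 WAF (log2 change 2.08, SE 0.037, adjusted p = 3.7e-14). Protein phosphatase 2C 25 (LOC111403034) fell, with 52.2, 52.6 and 53.1 FPKM at 30 WAF, against 305, 295 and 296 FPKM at 21 WAF (log2 change -2.48, SE 0.025, adjusted p = 2.7e-16). Genes of this list named protein phosphatase 2C thus ran in both directions.

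Of 34 gibberellin genes 19 were higher and 8 lower. The gibberellin-regulated protein 4 gene (LOC111376141), a relative of GAST1, had 126, 126 and 124 FPKM at 30 WAF, against 2.67, 3.24 and 2.91 FPKM at 21 WAF (log2 change 5.0, SE 0.052, adjusted p = 3.5e-16). Gibberellin 20 oxidase 2 (LOC111367679), a synthesis enzyme, had 260.3, 261 and 258 FPKM at 30 WAF, against 137, 144 and 149.7 FPKM at 21 WAF (log2 change 0.85, SE 0.039, adjusted p = 4.0e-10). Auxin genes were close to balance, with 40 higher and 47 lower of 95, though 22 fell at least 2-fold against 9 that rose so far. SAUR36 (LOC111368774), of a family of small auxin-induced proteins, had 9.66, 10.3 and 9.19 FPKM at 30 WAF, against 76.9, 72 and 68.7 FPKM at 21 WAF (log2 change -2.78, SE 0.073, adjusted p = 1.5e-12), and SAUR21 (LOC111394947) had 25.7, 22.5 and 24.6 FPKM at 30 WAF, against 1.84, 2.35 and 1.99 FPKM at 21 WAF (log2 change 3.05, SE 0.083, adjusted p = 2.1e-12).

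Stress-type transcription factors were lower at 30 WAF more often than higher. Of 84 WRKY genes 48 were lower and 23 higher, with 18 at least 2-fold lower against 5 higher. Their sum was 1605 to 1619 FPKM at 30 WAF against 2963 to 2998 FPKM at 21 WAF. WRKY53 (LOC111402874), a senescence and defence factor in Arabidopsis, had 8.36, 8.94 and 7.84 FPKM at 30 WAF, against 140.3, 141 and 138 FPKM at 21 WAF (log2 change -3.91, SE 0.040, adjusted p = 2.7e-16). WRKY70 (LOC111392938), the most abundant WRKY gene, had 97.5, 94.2 and 89 FPKM at 30 WAF, against 354, 355 and 350.4 FPKM at 21 WAF (log2 change -1.91, SE 0.040, adjusted p = 1.9e-13). Some went up, such as WRKY71 (LOC111407238) with 15.4, 16.4 and 17.4 FPKM at 30 WAF, against 3.89, 3.69 and 4.1 FPKM at 21 WAF (log2 change 1.83, SE 0.064, adjusted p = 2.5e-11).

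ERF and AP2 genes were lower for 58 and higher for 40 of 126, with 34 and 18 past 2-fold in those directions. RAP2-3 (LOC111371498), a factor tied to low oxygen and ethylene in Arabidopsis, was the most abundant and had 396, 411 and 405 FPKM at 30 WAF, against 1719, 1673 and 1666 FPKM at 21 WAF (log2 change -2.06, SE 0.039, adjusted p = 6.0e-14). ABR1 (LOC111409375), named for its repressor role in abscisic acid signalling in Arabidopsis, rose with 63.3, 66 and 66.5 FPKM at 30 WAF, against 3.43, 3.42 and 3.42 FPKM at 21 WAF (log2 change 3.9, SE 0.073, adjusted p = 6.1e-14). The ERF2 gene LOC111385996 is listed at 0 in all 3 libraries at 21 WAF and had 4.78, 5.28 and 6.97 FPKM at 30 WAF.

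NAC genes moved both ways, 32 higher and 22 lower of 68. NAC21/22 (LOC111407126) had 31.2, 30.6 and 27.8 FPKM at 30 WAF, against 1.08, 1.05 and 0.97 FPKM at 21 WAF (log2 change 3.92, SE 0.058, adjusted p = 6.7e-15), whereas NAC91 (LOC111404243) had 60.3, 60.9 and 57.8 FPKM at 30 WAF, against 341, 347 and 357 FPKM at 21 WAF (log2 change -2.53, SE 0.033, adjusted p = 2.3e-15). Among MADS-box and SPL genes, 21 higher and 24 lower of 59, the AGAMOUS gene LOC111412195, of a clade with ripening regulators in tomato, had 620.4, 635 and 649 FPKM at 30 WAF, against 360.0, 377 and 380.5 FPKM at 21 WAF (log2 change 0.77, SE 0.028, adjusted p = 4.5e-11). A GLOBOSA gene (LOC111382497), named for a petal identity factor, had 10.3, 11.2 and 8.88 FPKM at 30 WAF, against 1.18, 0.83 and 0.94 FPKM at 21 WAF (log2 change 2.48, SE 0.11, adjusted p = 4.4e-10). The bHLH list was near balance with 39 higher and 44 lower of 96, and its bHLH75 gene (LOC111399002) had 534, 538 and 525 FPKM at 30 WAF, against 166, 166 and 166 FPKM at 21 WAF (log2 change 1.68, SE 0.021, adjusted p = 1.9e-15).

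Most genes of oil synthesis rose, few of them by 2-fold. Of 54 plastid fatty acid synthesis genes 42 were higher and 8 lower, with a median of 0.47 and 4 past 2-fold. Acyl carrier protein 1 (LOC111375813), which holds the growing chain, had 2653, 2662 and 2817 FPKM at 30 WAF, against 1812, 1833 and 1781 FPKM at 21 WAF (log2 change 0.58, SE 0.037, adjusted p = 1.1e-08). Enoyl-ACP reductase (LOC111392747), the last step of each cycle, had 135, 132 and 130.1 FPKM at 30 WAF, against 59.8, 58 and 56.8 FPKM at 21 WAF (log2 change 1.17, SE 0.030, adjusted p = 1.0e-12). Against the trend, a biotin carboxyl carrier protein 1 gene (LOC111405363), of the enzyme that starts the pathway, had 78.1, 80.2 and 82.8 FPKM at 30 WAF, against 209.5, 209 and 203 FPKM at 21 WAF (log2 change -1.36, SE 0.035, adjusted p = 1.4e-12).

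Triacylglycerol and oil-body genes were higher for 28 and lower for 6 of 48. Oleosin 20.3 kDa (LOC111402449), a coat protein of oil bodies, had 252, 255 and 265 FPKM at 30 WAF, against 178, 172 and 160.1 FPKM at 21 WAF (log2 change 0.59, SE 0.059, adjusted p = 1.0e-06). Diacylglycerol O-acyltransferase 1A (LOC111383725), for the last step of oil assembly, fell with 17.7, 16.5 and 17.2 FPKM at 30 WAF, against 93.7, 95.5 and 90.9 FPKM at 21 WAF (log2 change -2.38, SE 0.041, adjusted p = 2.9e-14). The desaturase list was split, 6 higher and 7 lower of 15, and its median of 0.080 turned to -0.095 among the 11 members averaging at least 5 FPKM. The plastid omega-3 desaturase LOC111403247, which makes linolenate, had 6.89, 7.93 and 7.81 FPKM at 30 WAF, against 25.7, 25.6 and 25.3 FPKM at 21 WAF (log2 change -1.64, SE 0.051, adjusted p = 7.8e-12), and the stearoyl-ACP desaturase LOC111375456 given above rose by a log2 change of 0.40 (adjusted p = 7.0e-09). Seed genes could also carry oil-body transcripts. Of 6 seed storage genes tested, of 16 matched, 2 were higher and 3 lower, their median was -0.21 and turned to 0.27 among the 4 averaging at least 5 FPKM, and 3 of the 16 were at 0 in all 6 libraries. The 16 summed to 198 to 199.6 FPKM at 30 WAF and 155 to 156 FPKM at 21 WAF. The part of seed tissue in these results was not tested.

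Sterol and triterpene genes had 46 of 62 higher, 10 lower and a median of 0.51. The 2 largest rises among members that reached 5 FPKM were in beta-amyrin 28-oxidase genes, for enzymes that make triterpenic acids of the fruit surface. LOC111374953 had 599, 606 and 605 FPKM at 30 WAF, against 146, 140.1 and 138 FPKM at 21 WAF (log2 change 2.09, SE 0.029, adjusted p = 4.0e-15), and LOC111365629 had 374, 401 and 388 FPKM at 30 WAF, against 106, 115 and 108 FPKM at 21 WAF (log2 change 1.81, SE 0.033, adjusted p = 5.2e-14). HMG-CoA reductase, the control point of the mevalonate route, did not follow in every copy, since LOC111409359 had 5.39, 5.57 and 5.56 FPKM at 30 WAF, against 27.6, 26.7 and 28 FPKM at 21 WAF (log2 change -2.13, SE 0.037, adjusted p = 3.2e-14).

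Most photosynthesis genes were lower. Of 76 light-reaction genes 49 were lower and 13 higher, with a median of -0.30, and the sum was 9269 to 9549 FPKM at 30 WAF against 11377 to 12120.2 FPKM at 21 WAF. The shift was modest, as 9 fell at least 2-fold. Over the 4 ages the sum did not run in one direction, as it averaged 4128 FPKM at 17 WAF and 12252 FPKM at 26 WAF. Oxygen-evolving enhancer 3 (LOC111396002), of the water-splitting complex, had 903, 924 and 925 FPKM at 30 WAF, against 1515, 1470.3 and 1428 FPKM at 21 WAF (log2 change -0.68, SE 0.038, adjusted p = 3.4e-09). The light-harvesting protein 21 gene (LOC111402246) had 1072, 1061 and 1089.5 FPKM at 30 WAF, against 1225, 1229 and 1153 FPKM at 21 WAF (log2 change -0.16, SE 0.051, adjusted p = 0.012). No photosystem I subunit gene was called higher, and 12 of 14 were lower. In the Calvin cycle 12 of 28 were lower and 7 higher, with the small Rubisco subunit (LOC111391236) at 2489, 2558 and 2346 FPKM at 30 WAF, against 3434, 3150.4 and 3111 FPKM at 21 WAF (log2 change -0.39, SE 0.047, adjusted p = 7.4e-06).

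Chlorophyll synthesis fell in 25 of 40 genes and rose in 8. Protochlorophyllide reductase (LOC111395683), the light-dependent step, had 30.02, 29.2 and 31.4 FPKM at 30 WAF, against 90.2, 86.8 and 87.7 FPKM at 21 WAF (log2 change -1.52, SE 0.034, adjusted p = 3.4e-13). The chlorophyll breakdown list had 10 higher and 6 lower of 18, with no change of 2-fold. STAY-GREEN (LOC111368827), which draws magnesium from chlorophyll, had 120.5, 120.0 and 114 FPKM at 30 WAF, against 92.3, 92.7 and 96.4 FPKM at 21 WAF (log2 change 0.33, SE 0.034, adjusted p = 1.8e-06), while pheophytinase (LOC111384674), the step after it, had 64.3, 65.9 and 65 FPKM at 30 WAF, against 122, 125 and 126 FPKM at 21 WAF (log2 change -0.92, SE 0.030, adjusted p = 1.5e-11). Among 27 carotenoid genes, 12 higher and 7 lower, carotenoid cleavage dioxygenase 4 (LOC111387361) had 149, 155 and 155 FPKM at 30 WAF, against 48.4, 58.2 and 58.6 FPKM at 21 WAF (log2 change 1.46, SE 0.084, adjusted p = 4.4e-09).

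Time of day can move the same genes, and the hour of sampling is not given in the sources used here. Morning clock genes were higher for 6 and lower for 3 of 12, and summed to 163 to 167 FPKM at 30 WAF and 194 to 197 FPKM at 21 WAF. APRR7 (LOC111376891), a clock repressor, had 29.1, 27.6 and 27.4 FPKM at 30 WAF, against 70.5, 66.6 and 67.3 FPKM at 21 WAF (log2 change -1.25, SE 0.041, adjusted p = 1.2e-11), and LHY (LOC111392782), a dawn gene, had 9.25, 9.37 and 10.1 FPKM at 30 WAF, against 3.67, 4.36 and 4.02 FPKM at 21 WAF (log2 change 1.08, SE 0.058, adjusted p = 2.2e-09). Evening clock genes summed to 309.9 to 320.4 FPKM at 30 WAF and 307 to 316 FPKM at 21 WAF, with 4 higher and 7 lower of 15. No clock gene of the morning list and 3 of 19 of the evening list were at 0 in all 6 libraries. The part of the hour in the falls of light-reaction and DREB1 genes was not tested.

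Of 63 sugar and mannitol genes 39 were higher and 12 lower, with 18 past 2-fold upward and 1 downward. Polyol transporter 1 (LOC111399534), of a type that moves mannitol, a main sugar alcohol of olive, had 1580.1, 1579 and 1567 FPKM at 30 WAF, against 661, 667 and 649.9 FPKM at 21 WAF (log2 change 1.26, SE 0.025, adjusted p = 1.0e-13), and a second copy (LOC111399533) had 96.8, 99 and 96.2 FPKM at 30 WAF against 2.52, 2.03 and 2.71 FPKM at 21 WAF (log2 change 4.85, SE 0.079, adjusted p = 1.6e-14). Sugar transport protein 13 (LOC111369468), a hexose importer in Arabidopsis, had 46.8, 45.5 and 45 FPKM at 30 WAF, against 0.95, 1.01 and 0.92 FPKM at 21 WAF (log2 change 4.58, SE 0.047, adjusted p = 2.7e-16). Starch genes were balanced, 18 higher and 17 lower of 49. The 2 named beta-amylase 3 genes, for starch breakdown, moved in opposite directions, LOC111393930 with 102, 98.8 and 102 FPKM at 30 WAF, against 10.1, 9.59 and 10.8 FPKM at 21 WAF (log2 change 3.19, SE 0.041, adjusted p = 1.9e-15) and LOC111390256 with 3.78, 4.44 and 4.2 FPKM at 30 WAF, against 28, 27 and 27.9 FPKM at 21 WAF (log2 change -2.48, SE 0.048, adjusted p = 7.2e-14).

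Aquaporin genes were higher for 21 and lower for 8 of 34. The tonoplast aquaporin TIP2-1 (LOC111371488) had 59, 58 and 59.8 FPKM at 30 WAF, against 5.2, 6.01 and 4.56 FPKM at 21 WAF (log2 change 3.27, SE 0.086, adjusted p = 1.5e-12), whereas TIP1-2 (LOC111393814) had 5.53, 6.49 and 5.15 FPKM at 30 WAF, against 48.7, 49.2 and 45.4 FPKM at 21 WAF (log2 change -2.86, SE 0.076, adjusted p = 1.6e-12).

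The proteasome list had the highest share of higher genes of the 50 lists. Of 83 subunit genes 76 were higher, 3 lower and 4 did not pass, where 38.7% of all tested genes were higher. The median was 0.74, and the sum was 6864 to 6914 FPKM at 30 WAF against 3793 to 3816 FPKM at 21 WAF. Genes of the 20S core, the proteolytic barrel, had a median of 1.07 with 30 of 32 higher. Those of the 19S regulatory cap had 0.59 with 46 of 51 higher, and the difference between core and cap was not tested. The cap subunit 14 gene (LOC111408810), a deubiquitinase, had 113, 117 and 117 FPKM at 30 WAF, against 19.3, 20.4 and 18.4 FPKM at 21 WAF (log2 change 2.52, SE 0.047, adjusted p = 5.4e-14). The core subunit alpha type-4 gene (LOC111380553) had 171, 168 and 172 FPKM at 30 WAF, against 56.4, 56.2 and 52.3 FPKM at 21 WAF (log2 change 1.62, SE 0.038, adjusted p = 5.0e-13).

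Respiration genes were higher for 79 and lower for 5 of 100, with a median of 0.45. ATP synthase subunit O (LOC111386536) had 139, 136 and 149.9 FPKM at 30 WAF, against 45.3, 46.3 and 42.5 FPKM at 21 WAF (log2 change 1.64, SE 0.047, adjusted p = 3.4e-12). Ubiquinol oxidase 3 (LOC111398599), the alternative oxidase that bypasses proton pumping, fell with 31.7, 34.6 and 33.8 FPKM at 30 WAF, against 69.98, 66.6 and 68.2 FPKM at 21 WAF (log2 change -1.01, SE 0.040, adjusted p = 8.8e-11). Autophagy, protease and senescence genes were higher for 49 and lower for 13 of 81. Among them RD19B (LOC111394575), a cysteine protease, had 17.1, 17.9 and 18 FPKM at 30 WAF, against 0.59, 0.6 and 0.72 FPKM at 21 WAF (log2 change 3.51, SE 0.083, adjusted p = 5.5e-13), and SENESCENCE-ASSOCIATED GENE 21 (LOC111380152) had 22.2, 24.5 and 17.8 FPKM at 30 WAF, against 239.9, 222 and 236 FPKM at 21 WAF (log2 change -3.39, SE 0.093, adjusted p = 2.3e-12). SENESCENCE-ASSOCIATED GENE 21 encodes a LEA-type protein in Arabidopsis.

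Genes for cytosolic ribosomal proteins showed no common shift. Of 343 tested 123 were higher, 88 lower and 132 did not pass. Their median of 0.014 turned to -0.0047 with TPM scaling and to -0.018 with median-of-ratios scaling. Cell-cycle, replication and histone genes were higher for 54 and lower for 14 of 94, with histone H3.3 (LOC111401165), the most abundant, at 317, 309 and 327 FPKM at 30 WAF, against 233, 232 and 225 FPKM at 21 WAF (log2 change 0.46, SE 0.033, adjusted p = 4.0e-08) and histone H2A.1 (LOC111408072) falling with 14.2, 11.9 and 12.3 FPKM at 30 WAF, against 129.8, 123 and 137 FPKM at 21 WAF (log2 change -3.25, SE 0.059, adjusted p = 4.1e-14). Both lists hold many near-identical copies.

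Reactive oxygen scavenging was higher for 42 and lower for 8 of 60 genes, though superoxide dismutase 2 (LOC111371474), one of the most abundant, fell with 793, 770.2 and 790.2 FPKM at 30 WAF, against 1119.6, 1086 and 1052 FPKM at 21 WAF (log2 change -0.47, SE 0.040, adjusted p = 2.3e-07). Heat shock genes were higher for 47 and lower for 32 of 96, and the mitochondrial 22 kDa protein gene (LOC111391235), a small chaperone, had 114, 110.0 and 117 FPKM at 30 WAF, against 11.7, 12.3 and 13 FPKM at 21 WAF (log2 change 3.1, SE 0.041, adjusted p = 2.5e-15). Dehydrin DHN1 (LOC111379830), a protein of water stress, had 1522, 1566 and 1673 FPKM at 30 WAF, against 309, 293 and 286 FPKM at 21 WAF (log2 change 2.42, SE 0.043, adjusted p = 3.2e-14), on a list with 15 higher and 9 lower of 28. Defence genes were higher for 41 and lower for 23 of 73, with 29 past 2-fold upward, yet their sum was 5715 to 5789.7 FPKM at 30 WAF against 8716 to 9586 FPKM at 21 WAF. The abundant defensin-like 179 gene (LOC111386030), for a small antimicrobial-type peptide, had 805, 776 and 784 FPKM at 30 WAF, against 3720.3, 3514 and 3499 FPKM at 21 WAF (log2 change -2.18, SE 0.044, adjusted p = 1.1e-13).

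**Figure D3:**
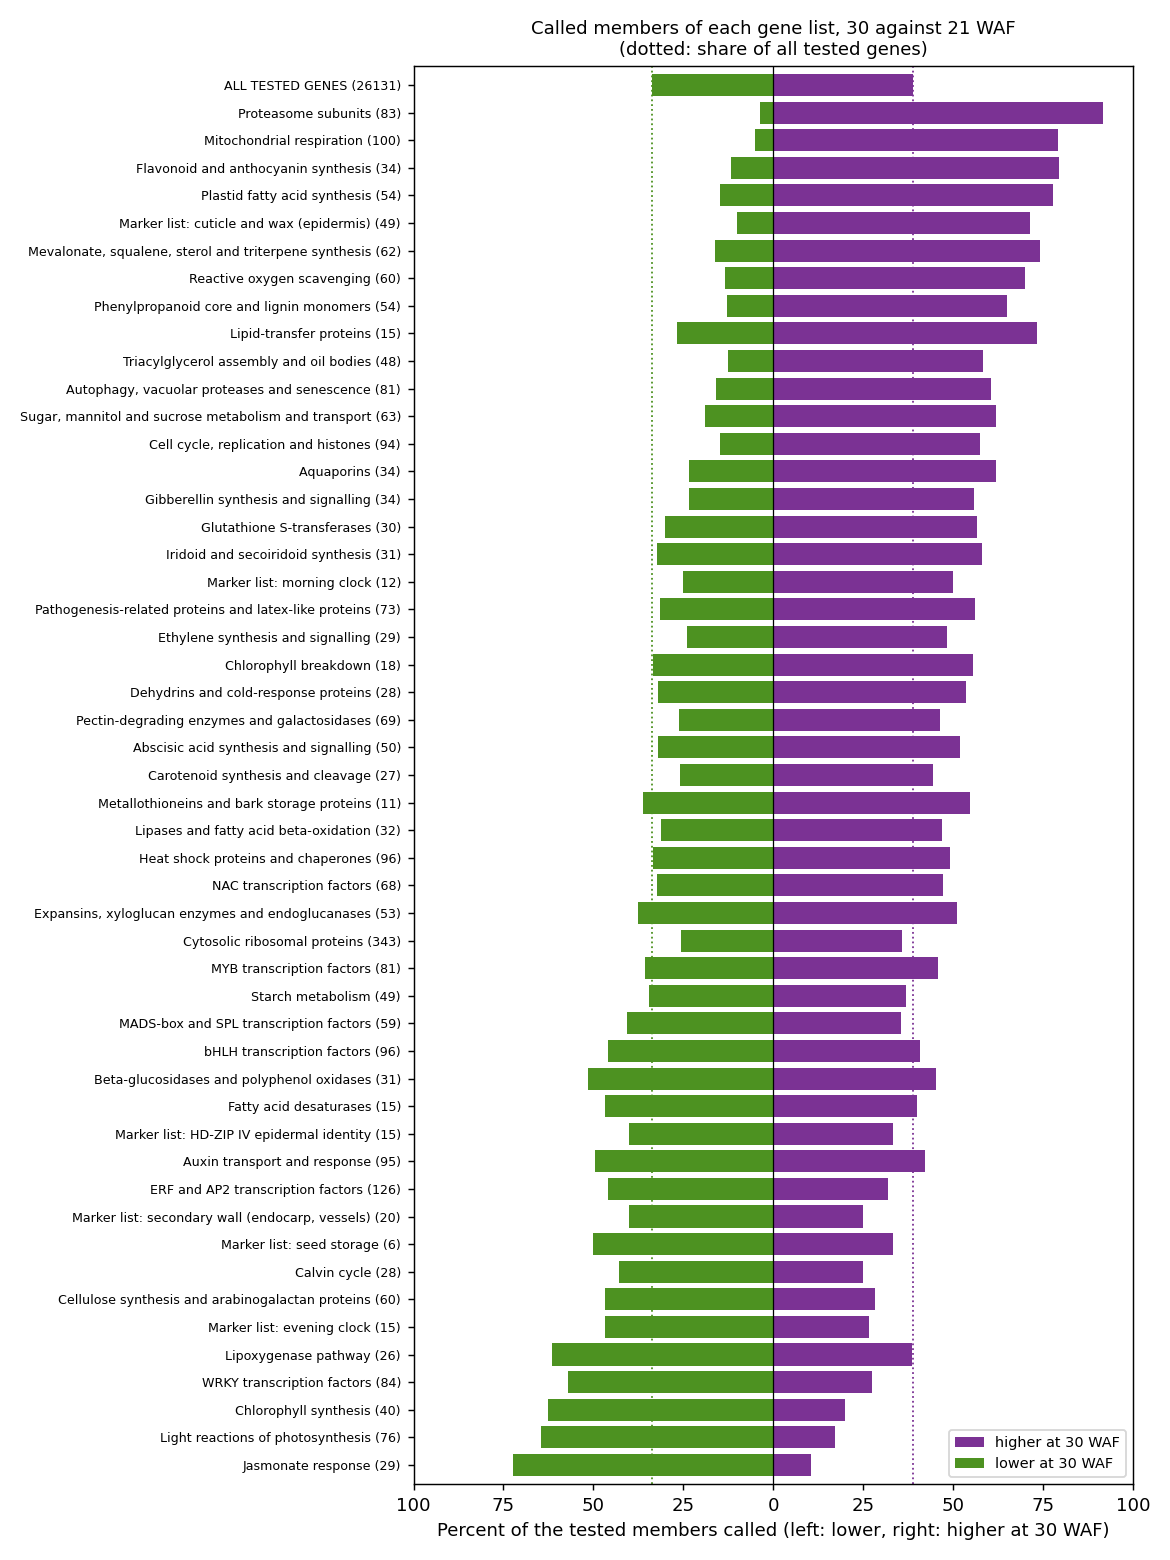
Share of the tested members of each of the 50 gene lists called higher (purple, to the right) or lower (green, to the left) at 30 than at 21 WAF at an adjusted p under 0.05, in percent, with the number tested in brackets. The upper bar and the dotted lines give all 26131 tested genes, 38.7% higher and 33.6% lower. The proteasome bar reaches farthest to the right, and the jasmonate bar farthest to the left.

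**Figure D4:**
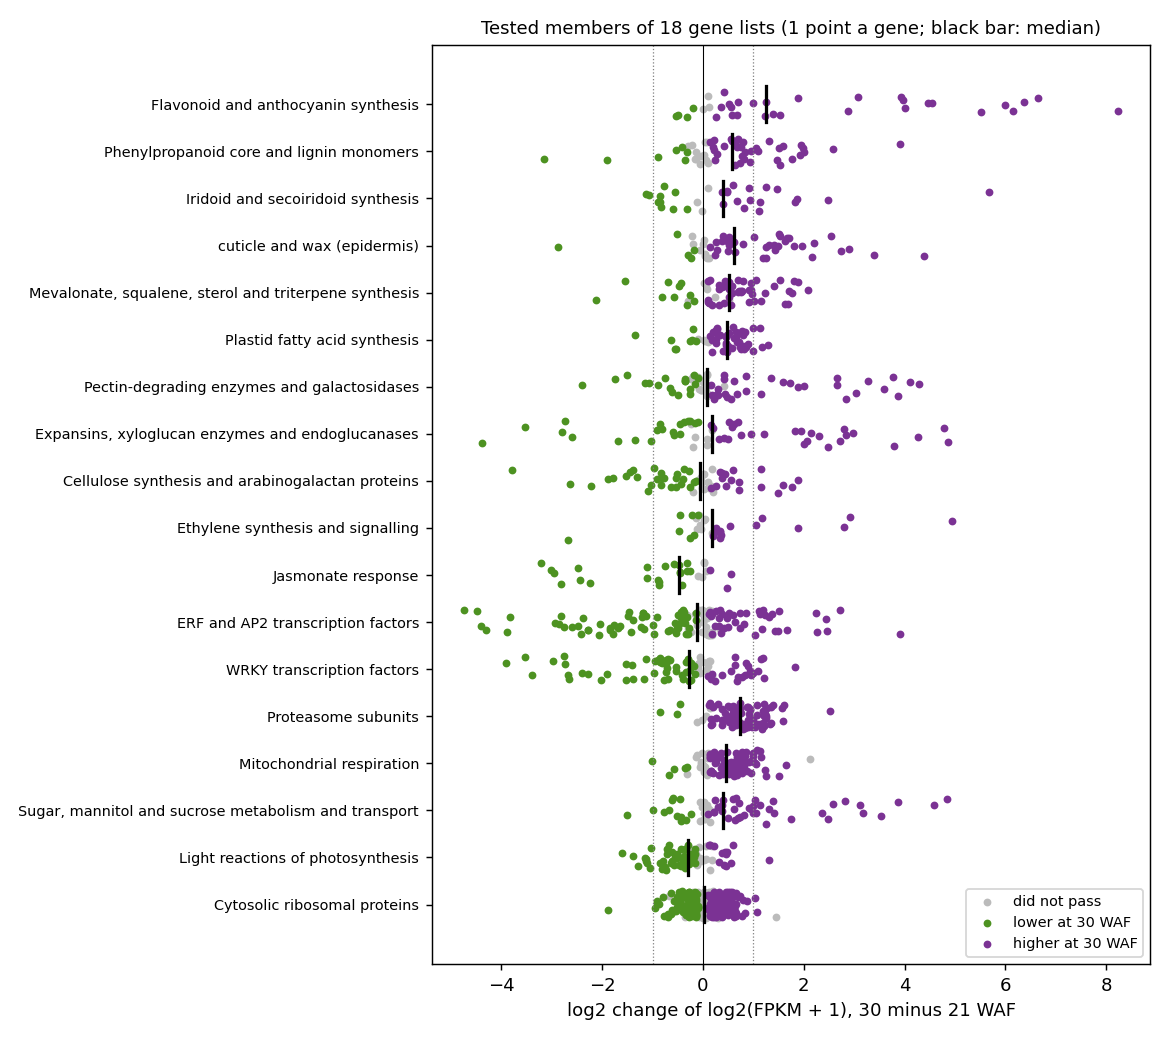
Log2 change of log2(FPKM + 1), 30 minus 21 WAF, for each tested member of 18 gene lists, 1 point per gene, with called genes in colour and a black bar at the median of the list. Flavonoid members spread up to 8.23, proteasome members sit close around 0.74, and wall and transcription factor lists reach far to both sides.

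The libraries at 26 WAF, which did not enter the fold change, show how far each change had come. Of the 1662 genes at least 2-fold higher at 30 WAF, 1426 (85.8%) had a 26 WAF mean between those of 30 and 21 WAF, and of the 1534 lower ones 1202 (78.4%) did. The median gene had covered 38.3% of its rise and 27.3% of its fall by 26 WAF on the log2 scale (43% and 22.9% with median-of-ratios scaling). Lists differed widely around these figures. Their members are not replicates, and no test was made.

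Heat shock and iridoid genes had come far by then. The 9 heat shock genes with a 2-fold rise had covered a median of 94.4%, and the 8 iridoid genes 63.9%. The 22 kDa heat shock gene LOC111391235 averaged 109.9 FPKM at 26 WAF and beta-amylase 3 LOC111393930 97.5 FPKM, both close to their 30 WAF levels. Polygalacturonase LOC111377603 stood at 105 FPKM at 26 WAF, 81.6% of its rise on the log2 scale, and expansin-A15 LOC111381719 at 1617 FPKM, 65.9%.

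Many wax genes had moved little or the other way by 26 WAF. The 22 cuticle and wax genes with a 2-fold rise had a median of -2.93% (-0.0604% with median-of-ratios scaling), and 12 of them were lower at 26 than at 21 WAF. ECERIFERUM 1 (LOC111373242) averaged 0.85 FPKM at 26 WAF and had covered 7.83% of its rise. Fatty acyl-CoA reductase 3 (LOC111391318) had covered 28% and ECERIFERUM 3 (LOC111385303) 36%. For the 11 cellulose and arabinogalactan genes with a 2-fold fall the median was -7.58%, while the 6 with a 2-fold rise had covered 69.95%. COBRA-like 7 (LOC111393401) averaged 169.6 FPKM at 26 WAF, above its 21 WAF level. The 18 genes of the flavonoid list with a 2-fold rise lay between, with a median of 38.2%. Leucoanthocyanidin dioxygenase LOC111368826 averaged 41.4 FPKM at 26 WAF, between its levels at 30 and 21 WAF, and had covered 56.3% of its rise. MYB113 (LOC111409128) had covered 39.7%. MYB114 (LOC111389429) averaged 1.52 FPKM at 26 WAF and had covered 4.36%, so most of its rise came later.

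At 17 WAF, the earliest age, 712 of the genes at least 2-fold higher at 30 than at 21 WAF were lower still than at both ages, 912 lay between and 38 above both. Of those at least 2-fold lower, 884 were above both ages, 601 between and 49 below both. Bark storage protein A is one that did not run in one direction: LOC111384066 averaged 5417 FPKM at 17 WAF and 17715 FPKM at 26 WAF, so its 21 WAF level was the peak of the 4 ages. Dehydrin DHN1 (LOC111379830) had the reverse course, with 2324 FPKM at 17 WAF and 501 FPKM at 26 WAF, so its lowest mean was at 21 WAF.

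**Figure D5:**
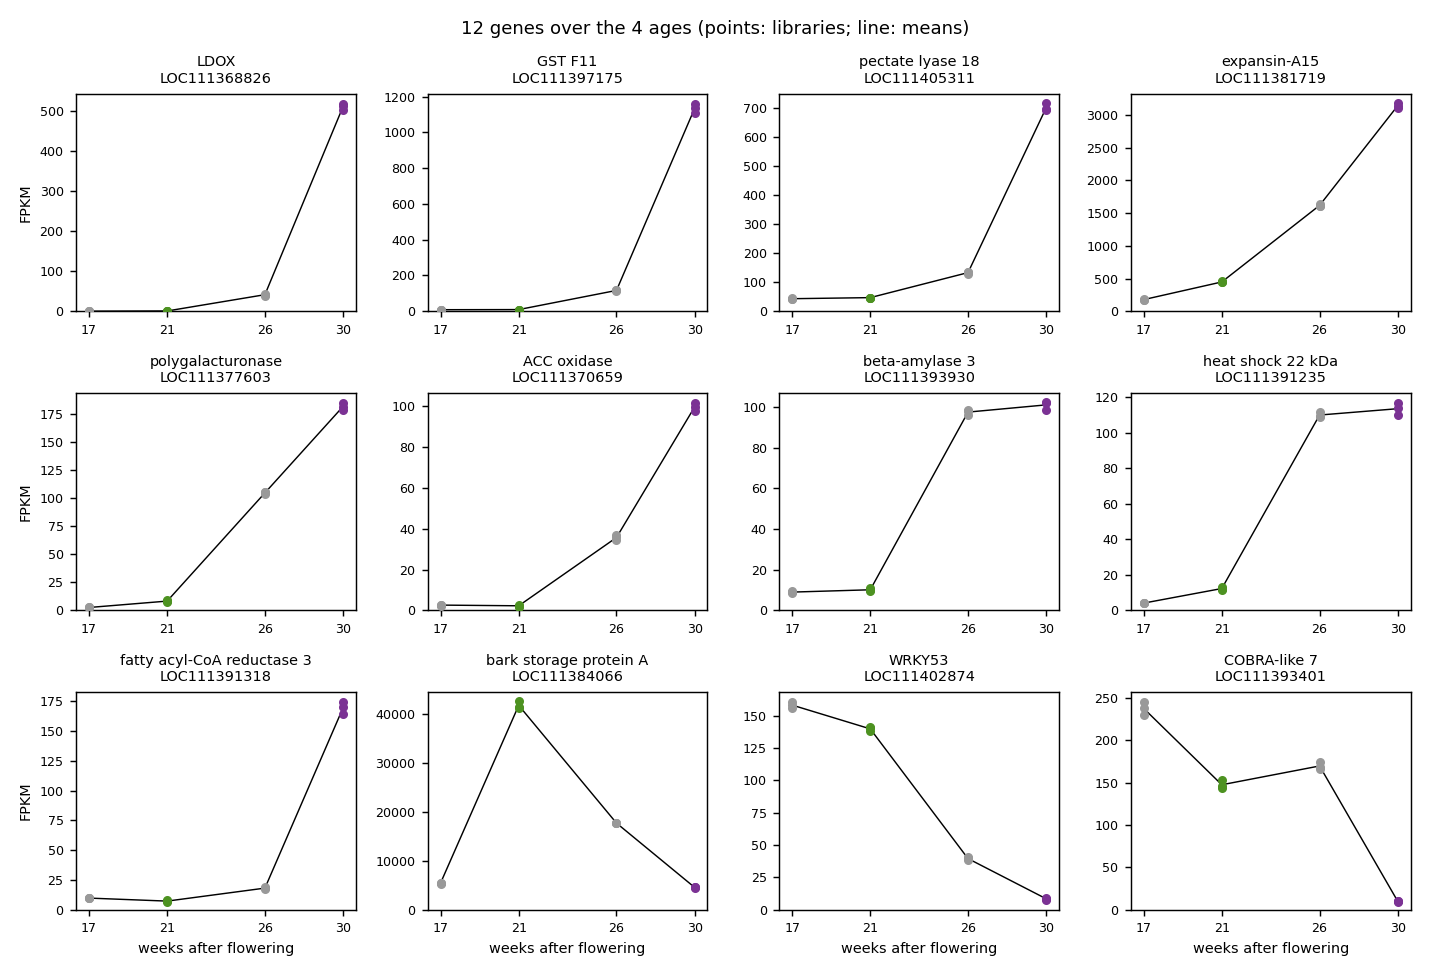
FPKM of 12 named genes at 17, 21, 26 and 30 WAF, with 1 point per library (21 WAF green, 30 WAF purple, other ages grey), a line through the means of 3 libraries and axes that start at 0. LDOX is leucoanthocyanidin dioxygenase. Beta-amylase 3 and the 22 kDa heat shock gene are near their 30 WAF level by 26 WAF, and bark storage protein A peaks at 21 WAF. Fatty acyl-CoA reductase 3 and GST F11 gain most of their FPKM after 26 WAF. On the log2 scale GST F11 had covered 51.7% of its rise by then.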

How the data were processed

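RNA of olive mesocarp was sequenced on a DNBseq platform, per the labels' protocols. The authors deposited FPKM values for 51008 genes in 12 libraries. The tools, per the submitters' processing notes, were Bowtie2 2.2.5, RSEM, StringTie 1.0.4 and HISAT2 2.0.4, with no role stated. Genome build, strand setting and depth: not given in the sources used here. Low FPKM values gave no recoverable whole reads.

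Genes with at least 1 FPKM in 3 or more of 12 libraries (26131) were fitted as log2(FPKM + 1) with limma 3.58.1 in R 4.3.3, with a mean per age, an intensity trend and the contrast 30 minus 21 WAF. P-values were adjusted by the Benjamini-Hochberg method over all 26131 genes, with a threshold of 0.05. A fold change on this scale understates changes of low genes. The fit was tested on simulated data.

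The 50 gene lists were matched by the table's gene descriptions. Names in the text rest on these descriptions and mostly leave out their words "-like", "probable" and "putative". The functions given with the names were not tested in olive here. The comparison and the lists were chosen with earlier results of these data known. Named genes were drawn from the 10 largest rises and falls (at least 10 FPKM in the higher age, no overlap of libraries), and for each list the 2 most abundant and the 2 largest rises and falls reaching 5 FPKM, plus the 5 most abundant genes at each age. The text names only those it had room for. Alternatives covered the pseudocount, filters, TPM and median-of-ratios scaling, array weights, the 6 libraries alone, a replicate block, no trend and each library left out.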

Additional observations from a re-analysis of the deposited data

How the results depend on the processing

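Counts of genes higher and lower at 30 WAF stayed within 1.5 times those reported, with 3 exceptions. With a pseudocount of 0.1 in place of 1, 2464 genes fell at least 2-fold, since low genes then change more on the log2 scale. With a mean of at least 5 FPKM required, 5826 genes were lower and 996 rose at least 2-fold, of 16697 genes tested instead of 26131. The larger side of the 2-fold counts changed with the processing. Rises and falls of at least 2-fold numbered 2322 and 2464 with that pseudocount, and 996 and 1151 with that filter. Median-of-ratios scaling gave 1567 and 1597. Leaving out 1 library at a time gave 9638 to 9898 genes higher and 8197 to 8489 lower, with 1657 to 1681 at least 2-fold higher and 1534 to 1579 at least 2-fold lower. No called gene took the opposite call under any alternative run. Under the filter at 5 FPKM the median log2 change turned to 0.28 for Beta-glucosidases and polyphenol oxidases, to -0.095 for Fatty acid desaturases, to -0.10 for MYB transcription factors and to 0.27 for the seed storage markers, with fewer genes left in each list. Library letters did not pair the samples (correlations of deviations -0.030, 0.026 and -0.024), and the replicate block gave 10056 genes higher and 8721 lower. The unknown depth and the 3 libraries an age limit the precision.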
